A study of Mus musculus with 15 samples.

Results

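The erythrocyte miRNAs are the miRNAs made in such quantity by red cell precursors that blood left in a tissue brings them into a sample of that tissue. Their members here were chosen by name, as the mature forms of miR-451a, miR-144 and miR-486, and not by any measured value. Of the 696 mouse miRNA entries on the array, 2 matched, miR-451a and miR-144-3p. Entries for miR-486 were not analysed here. The livers came from male mice, of the strain written B6C57/J in the labels and C57BL/6 in the study's methods, that were 1 year old when their diets began and stayed on them for life. SD mice ate the AIN-93G diet freely, CR mice received a 40% caloric restriction of the same diet, and Met mice ate it freely with 0.1% metformin by weight added. Each group had 5 mice, and total RNA from each liver was hybridized to 1 single-color array of a mouse miRNA design. Whether blood was rinsed from the livers before they were frozen is not given in the sources used here.

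miR-144 and miR-451a are cut from a shared primary transcript that the erythroid factor GATA1 activates, and they are known for their abundance in maturing red cells and in blood. miR-451a is also known for the way it matures. Most miRNA hairpins are cut by Drosha and then by Dicer, but the miR-451a hairpin is too short for Dicer and is instead sliced by AGO2 and trimmed from its 3′ end. miR-144-3p takes the usual Dicer route. The study asked how metformin and caloric restriction affect DICER1 and the miRNAs that it makes. The pair therefore joins a Dicer-independent and a Dicer-dependent product of a single transcript.

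The sequences of the members are shown because their hairpins differ in where the mature strand lies. In the mature forms the capitals mark the seed, bases 2 to 8, and in the hairpins they mark the mature strand. Sequences and positions were taken from RefSeq on build GRCm38.p6, in which both hairpins lie on the plus strand of chromosome 11, and both members were matched there.
miR-451a: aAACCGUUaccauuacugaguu
miR-144-3p: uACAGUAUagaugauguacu
Mir451a hairpin: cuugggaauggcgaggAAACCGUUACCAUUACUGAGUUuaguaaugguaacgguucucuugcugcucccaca
Mir144 hairpin: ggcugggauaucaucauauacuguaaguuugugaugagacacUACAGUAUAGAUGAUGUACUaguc
The Mir144 hairpin spans chr11:78073005-78073070 and the Mir451a hairpin spans chr11:78073170-78073241, with 99 bases between them. Within these hairpins, miR-144-3p lies at chr11:78073047-78073066 and miR-451a at chr11:78073186-78073207. A further gene, Mir451b, is annotated over the same interval as Mir451a. The members do not share a seed, and no other mature mouse entry in the table carries either seed. In the minimum free energy fold computed with ViennaRNA, the Mir451a hairpin of 72 bases closed in a loop of 4 bases. The mature miR-451a occupied bases 17 to 38 of it, and its last 4 bases were the loop itself. In the Mir144 hairpin of 66 bases the loop held 6 bases, and miR-144-3p lay wholly past it, at bases 43 to 62.

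Both members were measured with 2 probes of 10 spots each, or 20 spots per array. The signal is given below in 2 forms. Total gene signal is the scanner software's background-subtracted sum over a miRNA's probes on a linear scale, not normalized between arrays. The z-score is the natural log of a spot's median signal, centered on the mean of its array and divided by the standard deviation of its array, as the study scaled its data, with background left in. A miRNA was detected on an array where the software said so. A miRNA entered the tests if every mouse of some group had it detected, as 178 of 696 did. The arrays sat on 2 slides. The first held all SD mice and Met mice 1 to 3, and the second held all CR mice and Met mice 4 and 5, so CR and SD shared no slide.

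CR mice 2 and 3 stood apart from the other mice on several array-wide measures, and results that rest on them are given with and without them. On their arrays, 167 and 151 miRNAs were detected, against 170 to 205 on the other 13 arrays. Their summed total gene signal on the log2 scale was 16.7 and 16.4, against 17.0 to 17.9. The median log2 signal of miRNAs detected on all arrays, with background left in, did not set CR mouse 2 apart. It was 7.41 in CR mouse 2 and 7.26 in CR mouse 3, and 7.40 in SD mouse 2 and in CR mouse 4. Of the 178 tested miRNAs, 58 (32.6%) had their lowest z-scores in these 2 mice. In bulk liver RNA, fewer red cells and less RNA per red cell cannot be told apart. The amount, quality and labeling of the RNA of these 2 mice were not tested.

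miR-451a was detected in all 15 livers. Its total gene signal in SD mice 1 to 5 was 657, 265, 711, 405 and 408. In CR mice 1 to 5 it was 349, 33.8, 44.5, 270 and 770. In Met mice 1 to 5 it was 612, 291, 490, 419 and 401. Most livers thus lay in a common band from 265 to 770, and the highest and the lowest livers of the study were both from CR mice. The software's error for CR mice 2 and 3 was 4.02 and 4.94, so the gap between them and the lowest of the other livers was many times larger than the error of the spots. Of the spots kept, 17 of 20 in CR mouse 2 and 19 of 20 in CR mouse 3 were well above background, so miR-451a was low there but measured. From the lowest to the highest liver, miR-451a ranged 22.8-fold. Over the same arrays miR-122-5p, the dominant miRNA of hepatocytes, ranged 2.62-fold. It does not stand for all hepatocyte miRNAs. Of 6 such miRNAs listed below, 5 had their lowest z-scores in CR mice 2 and 3, and miR-122-5p was the exception.

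**Figure D1:**
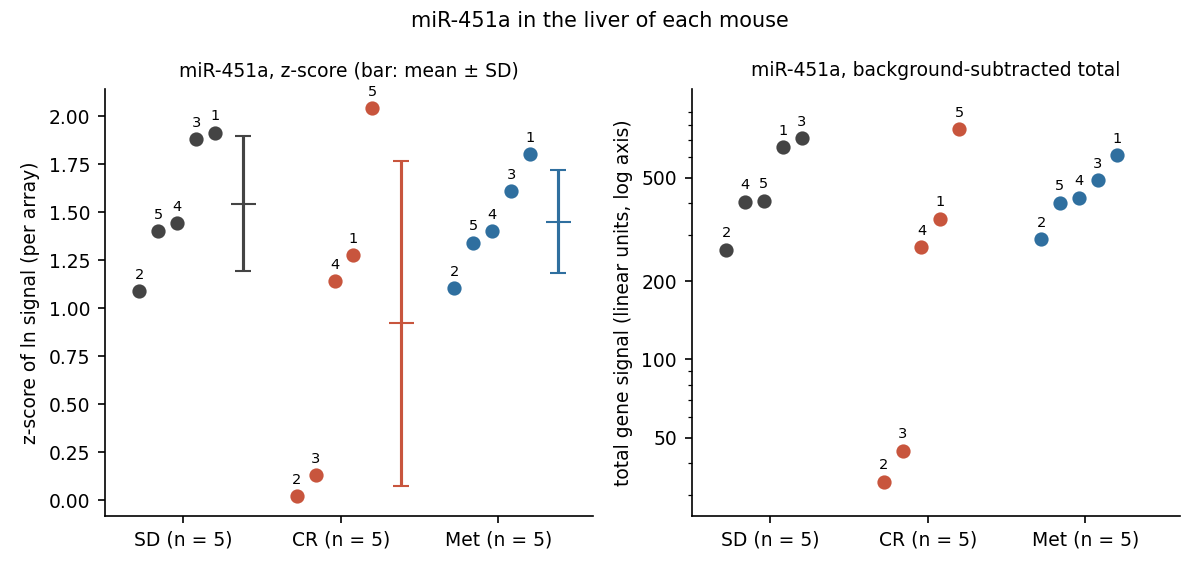
miR-451a in each liver, as z-score of the natural log signal (left, with the mean ± SD of each group beside the points) and as total gene signal in linear units on a log axis (right). Each point is 1 mouse with its number, and CR mice 2 and 3, at 33.8 and 44.5, lie below all other mice, which lie between 265 and 770.

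The geometric mean of total gene signal was 459 in SD, 429 in Met and 161 in CR. For CR mice 2 and 3 alone it was 38.8, and SD was 11.9-fold above them. For the other 3 CR mice it was 417, close to the values of SD and Met. On the z-score scale, with background left in, these differences were smaller. The z-score of miR-451a was 1.55 ± 0.350 in SD, 1.45 ± 0.266 in Met and 0.921 ± 0.847 in CR (mean ± SD, n = 5 each). The order of the groups was therefore SD, Met and CR, and no pair of groups, SD and CR included, had means farther apart than the larger of their SDs. The SD of miR-451a within CR was the second widest of the 178 tested miRNAs, after miR-21a-5p, and it was the tenth widest within SD and within Met. On log2 total gene signal, the SD of 1.96 within CR was the widest of the 139 miRNAs detected in all livers. The corresponding SD was 0.58 within SD mice and 0.40 within Met mice.

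Whether metformin or caloric restriction changed the members was tested in a single limma fit over all 15 arrays, with Benjamini-Hochberg adjustment over the 178 tested miRNAs. The limits were those of the study's methods, p of at most 0.05, adjusted p of at most 0.3 and an absolute Z ratio of at least 1.5, but the p came from limma and not from the pairwise test that the methods name. A Z ratio is a difference in mean z-score divided by the standard deviation of such differences over all mouse miRNAs. In Met against SD, 0 of the 1 tested member met the criteria, against 1.12% of all tested miRNAs. miR-451a differed there by -0.0943 in z-score, with a 95% interval from -0.754 to 0.566 (limma, Z ratio -1.55, adjusted p = 0.930). The interval is wide, and a change of the size of the SD mice's own spread in either direction could not be told from none. The pairwise test gave 13 miRNAs in place of 2 in Met against SD, and miR-451a was not among them.

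In CR against SD, miR-451a differed by -0.624 in z-score, with a 95% interval from -1.28 to 0.0360 (limma, Z ratio -3.75, adjusted p = 0.144). The limits on adjusted p and Z ratio were passed and that on the unadjusted p was missed, so 0 of 1 member met the criteria, against 17.4% of all tested miRNAs. In CR against Met, miR-451a differed by -0.530, with an interval from -1.19 to 0.130 (limma, Z ratio -3.42, adjusted p = 0.180), and again 0 of 1 member met the criteria, against 20.8%. CR and SD lay on different slides, so slide and diet can be told apart only through the Met mice. With the slide as a block, the CR against SD difference was -0.490 (limma, Z ratio -2.73, adjusted p = 0.614). Within the slide that held CR, the difference from Met mice 4 and 5 was -0.449 (limma, Z ratio -2.68, adjusted p = 0.511). Within the slide that held SD, Met mice 1 to 3 differed from SD by -0.0406 (limma, Z ratio -0.760, adjusted p = 0.976).

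The CR results rested on which CR mice were counted. Without CR mice 2 and 3, an alternative chosen after seeing the data, the CR against SD difference of miR-451a was -0.0592 (limma, Z ratio -0.514, adjusted p = 0.885). The CR against Met difference then was 0.0351, on the other side of 0 (limma, Z ratio 0.371, adjusted p = 0.944). Leaving out CR mouse 5, the liver with the highest signal, moved the result the other way. The criteria were then met against SD (limma, difference -0.904, Z ratio -4.79, adjusted p = 0.0139) and against Met (limma, difference -0.810, Z ratio -4.50, adjusted p = 0.0191). In that fit, 36 of 178 tested miRNAs met the criteria against SD and 42 of 178 against Met. Against SD, miR-451a also met them without CR mouse 1 (limma, Z ratio -3.81, adjusted p = 0.103), beside 35 of 178 tested miRNAs. It did so too without SD mouse 2 (limma, Z ratio -4.58, adjusted p = 0.117), beside 28 of 178. Without CR mouse 2 the adjusted p against SD was 0.356, and without CR mouse 3 it was 0.317 (limma). What set CR mice 2 and 3 apart was not tested.

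**Figure D2:**
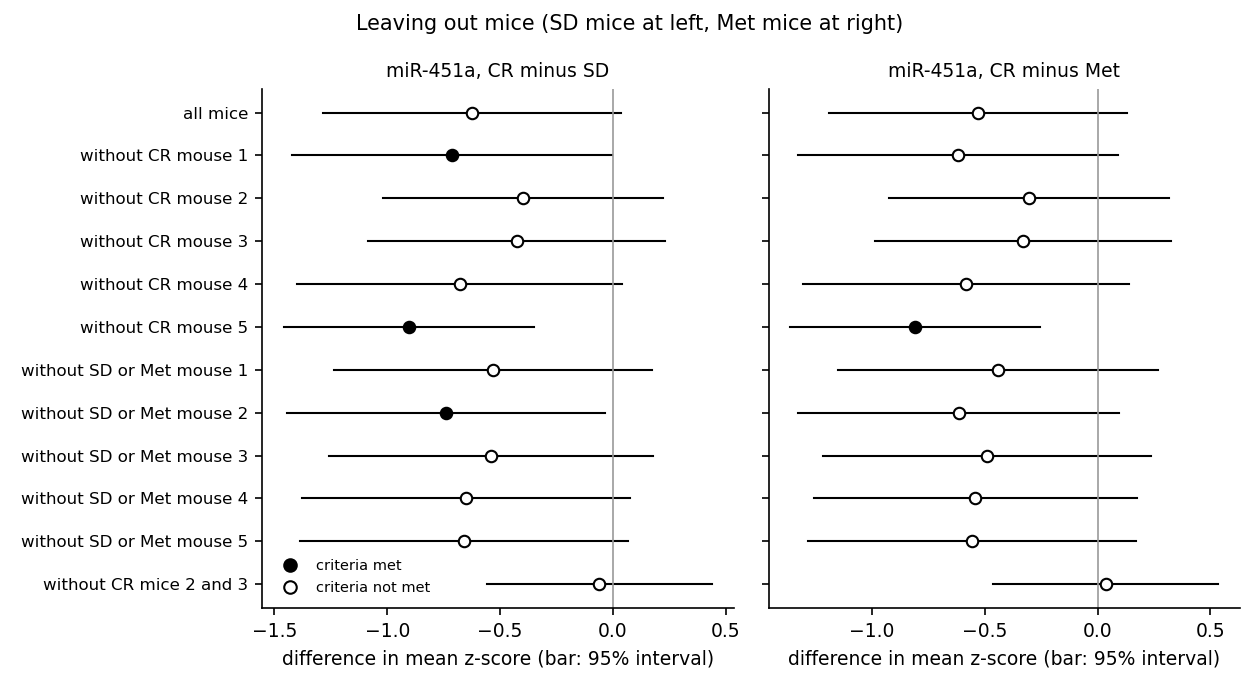
Difference of miR-451a in mean z-score for CR minus SD (left) and CR minus Met (right), over all mice, without each mouse in turn, and without CR mice 2 and 3. Bars are 95% intervals from limma and filled points met the criteria, which miR-451a did against both groups without CR mouse 5, while the difference lay near 0 without CR mice 2 and 3.

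To set the red cell miRNA beside a hepatocyte miRNA without any scaling between arrays, miR-122-5p was subtracted from miR-451a within each array on the log2 scale. Only how this quantity differed between groups is read here, since different probes are not comparable in level. With median spot signal, the within-array difference was -4.94 ± 0.45 in SD, -5.42 ± 0.54 in CR and -5.23 ± 0.28 in Met (mean ± SD, n = 5 each). CR and SD differed by -0.47 on the log2 scale (two-sided exact permutation test, p = 0.183, adjusted over 3 contrasts p = 0.440). Met and SD differed by -0.28 (exact permutation p = 0.294, adjusted p = 0.440), and CR and Met by -0.19 (exact permutation p = 0.532). miR-122-5p itself was not constant. Its z-score differed from SD by 0.252 in Met, the largest positive difference of all tested miRNAs (limma, Z ratio 4.13, adjusted p = 0.669), and by 0.217 in CR (limma, Z ratio 1.31, adjusted p = 0.155), so the within-array value moves with either miRNA. No contrast passed a threshold of 0.05, and 5 against 5 mice allow a p as small as 0.00794. With total gene signal, from which background is taken, CR and SD differed by -1.28 on the log2 scale (exact permutation p = 0.151, adjusted p = 0.317). CR mice 2 and 3, at -8.74 and -7.80, had the lowest within-array values by total gene signal. The remaining livers lay between -6.22 and -4.62. The z-score of miR-122-5p in CR mice 2 and 3 was 6.38 and 6.12, inside the range of 5.77 to 6.40 of the other livers. Of the 6 listed hepatocyte miRNAs, the other 5 had their lowest z-scores in these mice. Without these mice, CR and SD differed by -0.17 and CR and Met by 0.12 with median signal.

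miR-144-3p, which is made from the same transcript and is known to restrain the antioxidant factor NRF2 in red cells, was near the limit of detection. It was detected in SD mice 1 and 3, CR mouse 5, and Met mice 1 and 3, or 5 of 15 livers. It was detected on all arrays of no group and was therefore not tested. Its mean background-subtracted spot signal in SD mice 1 to 5 was 17.5, 5.80, 12.1, 10.99 and 4.85. In CR mice 1 to 5 it was 5.48, 2.74, 0.773, 6.51 and 13.2. In Met mice 1 to 5 it was 12.3, 8.20, 12.8, 5.81 and 8.33. The groups overlapped, and the lowest values were again those of CR mice 2 and 3. For scale, the mean of the negative control spots, treated the same way, lay between -1.98 and 1.11 over the arrays. The SD among these control spots ran from 2.87 on the array of SD mouse 2 to 9.08 on that of SD mouse 5. Few single spots of miR-144-3p stood well above background, 13 of 17 in SD mouse 1, 3 of 19 in Met mouse 3, 2 of 16 in SD mouse 3, 1 of 20 in Met mouse 1 and 0 in the other livers, CR mouse 5 included. Its z-score was -0.207 ± 0.0489 in SD, -0.231 ± 0.0361 in CR and -0.222 ± 0.0384 in Met (mean ± SD, n = 5 each). When all 696 entries were tested with no filter, the adjusted p of miR-144-3p was 0.998 for Met against SD, 0.379 for CR against SD and 0.747 for CR against Met (limma).

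The 5 livers in which miR-144-3p was detected were the 5 with the highest total gene signal of miR-451a, 770, 711, 657, 612 and 490, and the next liver had 419. Over the 13 livers other than CR mice 2 and 3, the background-subtracted signals of the members correlated with Pearson's r = 0.781 (permutation p = 0.00161) and Spearman's rho = 0.665 (permutation p = 0.0161). Over all 15 livers r was 0.865 (permutation p = 5e-05, adjusted over 4 relations p = 0.0002) and rho was 0.779 (permutation p = 0.00085, adjusted p = 0.0034). The 2 mice left out were also those farthest from the median of miR-451a, so the relation did not rest on them. Within the first slide r was 0.748 (n = 8, exact permutation p = 0.0324) and within the second it was 0.955 (n = 7, exact permutation p = 0.00496). With each group's mean removed, r was 0.836. The background-subtracted signal of miR-144-3p correlated with that of the negative control spots with r = 0.153 (permutation p = 0.591) and rho = 0.0893 (permutation p = 0.751). Control spots do not measure a miRNA, so they could not show array-wide differences in RNA amount or labeling. The background-subtracted signals were not scaled between arrays, and the part of such differences in the relation was not tested.

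**Figure D3:**
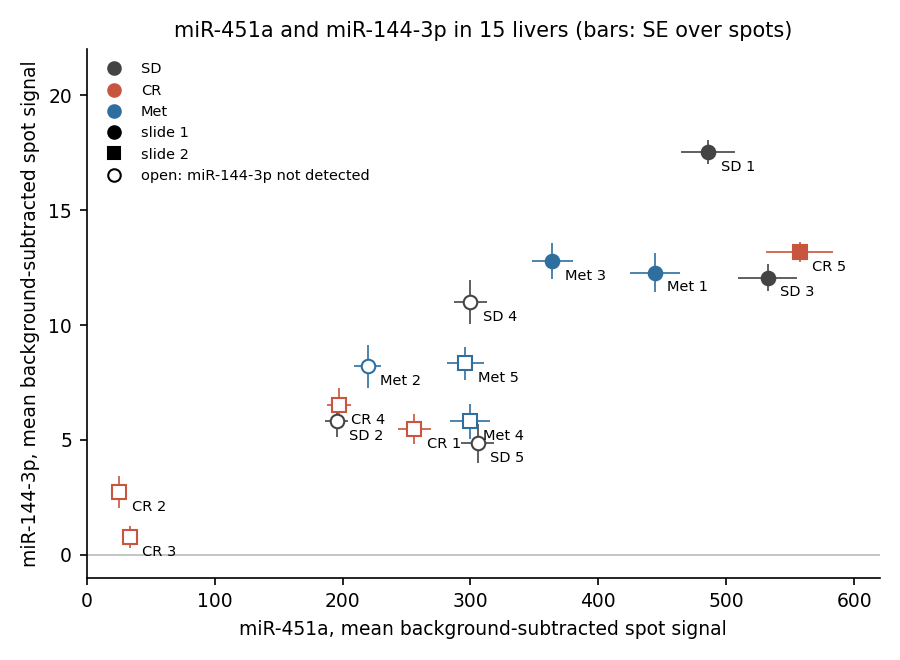
Mean background-subtracted spot signal of miR-451a and miR-144-3p in linear units, with 1 point per liver and standard errors over spots. Color gives the group, circles and squares give the first and second slide, and the 5 filled points, where miR-144-3p was detected, lie at the right, at the highest miR-451a signals.

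On the z-scores that were tested for diet, the relation was r = 0.637 over 15 livers (permutation p = 0.0104, adjusted p = 0.0207) and rho = 0.711 (permutation p = 0.00377, adjusted p = 0.00754). Without CR mice 2 and 3 it was r = 0.725, and with group means removed r = 0.624. It held within the first slide (r = 0.782, n = 8, exact permutation p = 0.0242) and not within the second (r = 0.525, n = 7, exact permutation p = 0.216). With arrays scaled to the 75th percentile of the probes detected throughout, it turned to r = -0.659 (permutation p = 0.00728), while rho was -0.346 (permutation p = 0.208). The sign of the relation between the members, with background left in the signal, thus changed with the scaling. Between miR-451a and miR-122-5p, r over the 15 livers was -0.189 (permutation p = 0.496, adjusted p = 0.591) and rho was -0.179 (permutation p = 0.526, adjusted p = 0.702).

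Other miRNAs known to be abundant in red cells were read from a list of 11, of which 9 were on the array and 5 were tested. Against SD, 0 of 5 met the criteria in Met, beside 1.12% of all tested miRNAs, and 1 of 5 in CR, beside 17.4%. That 1 was miR-16-5p, a repressor of cell cycle genes that many tissues express, which was lower in CR. Its z-score was 0.990 ± 0.420 in CR and 1.43 ± 0.160 in SD (limma, Z ratio -2.63, adjusted p = 0.0440). It was also lower in CR than in Met, where 20.8% of all tested miRNAs met the criteria (limma, Z ratio -3.14, adjusted p = 0.0274). In CR mice 1 to 5 its z-score was 1.41, 0.549, 0.568, 1.04 and 1.38, so the mice lowest in miR-451a were lowest in miR-16-5p as well. Without CR mice 2 and 3, the adjusted p of miR-16-5p was 0.376 against SD and 0.281 against Met (limma), and the criteria were not met. With the slide as a block, they were not met against SD (limma, Z ratio -3.14, adjusted p = 0.257). miR-92a-3p, from the miR-17-92 cluster, went the other way. It differed from SD by 0.195 in CR, with a 95% interval from 0.0750 to 0.316, and missed only the limit on the Z ratio (limma, Z ratio 1.17, adjusted p = 0.0210). Without CR mice 2 and 3, miR-92a-3p met the criteria as higher in CR (limma, Z ratio 1.95, adjusted p = 0.0243) and in Met (limma, Z ratio 1.95, adjusted p = 0.261) than in SD. It was also called higher in Met than in SD by the pairwise test of the methods. miR-25-3p, miR-93-5p and miR-185-5p did not meet the criteria in any contrast. The erythroid miR-96-5p, miR-182-5p, miR-183-5p and miR-363-3p were not detected in any liver. The median difference of the 5 tested red cell miRNAs from SD was -0.0256 in CR and 0.0127 in Met, beside medians of -0.0161 and 0.00838 over all tested miRNAs.

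Blood also carries white cells and platelets, and their list gave 6 tested miRNAs of 8. These include miR-223-3p of myeloid cells, miR-142-3p of all blood lineages, and miR-126-3p of endothelium and platelets. Against SD, 0 of 6 met the criteria in Met and in CR, beside 1.12% and 17.4% of all tested miRNAs. The median differences were 0.0146 in Met and -0.157 in CR. miR-142-3p, miR-126-5p and miR-223-3p were lower in CR than in SD and missed only the limit on the Z ratio. Their Z ratios were -0.975, -0.911 and -1.15, with adjusted p of 0.0159, 0.0154 and 0.0872 (limma). Of the 6 means, 5 were lower and 1 was higher in CR than in SD. With the slide as a block, 2 of 6, miR-223-3p and miR-146a-5p, were lower in CR than in SD and than in Met. Under that block, 17 of all 178 tested miRNAs met the criteria against SD and 34 against Met. Without that block, 1 of 6 was lower in CR than in Met, miR-126-3p (limma, Z ratio -2.72, adjusted p = 0.0852), beside 20.8% of all tested miRNAs, and without CR mice 2 and 3 its adjusted p was 0.699. CR mice 2 and 3 held the lowest z-scores of 5 of the 6, and of 2 of the 5 on the red cell list, beside 32.6% of all tested miRNAs.

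The low values of these mice were not limited to blood miRNAs. Of 6 hepatocyte miRNAs, all tested, 4 were lower in CR than in SD, namely miR-192-5p, miR-194-5p, miR-148a-3p and miR-101a-3p, and 0 met the criteria in Met. The same 4 were lower in CR than in Met. The share of all tested miRNAs meeting the criteria was 17.4% in CR against SD, 20.8% in CR against Met and 1.12% in Met against SD. The means of these 4, like that of miR-16-5p, were lower in CR under every scaling tried, but not all calls held. With the slide as a block, 1 of the 4, miR-101a-3p, met the criteria against SD, beside 17 of 178 tested miRNAs. Against Met, all 4 met them with that block, beside 34 of 178. Within the slide that held CR, miR-101a-3p was the only 1 of them to do so against Met, beside 12 of 185. miR-192-5p had z-scores of 2.91, 1.23, 1.36, 2.43 and 2.79 in CR mice 1 to 5 and differed from SD by -0.887 (limma, Z ratio -5.33, adjusted p = 0.0257). CR mice 2 and 3 held the lowest z-scores of 5 of the 6 hepatocyte miRNAs, miR-122-5p being the exception. By total gene signal miR-122-5p was lowest there too, at 14485 and 9922, against at least 16169 in the other livers. Without CR mice 2 and 3, 3 of the 4 still met the criteria against SD, miR-192-5p (limma, adjusted p = 0.125), miR-148a-3p (limma, adjusted p = 0.0735) and miR-101a-3p (limma, adjusted p = 0.0349). In that fit, 22 of 181 tested miRNAs met the criteria against SD. In CR, the summed total gene signal ran from 33.9 to 788 for the 2 erythrocyte miRNAs, from 366 to 933 for the red cell list and from 10572 to 28305 for the hepatocyte list. In SD, these sums ran from 265 to 726, from 720 to 1075 and from 19520 to 30622. The part that the lower array-wide signal of CR mice 2 and 3 had in these differences was not tested.

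**Figure D4:**
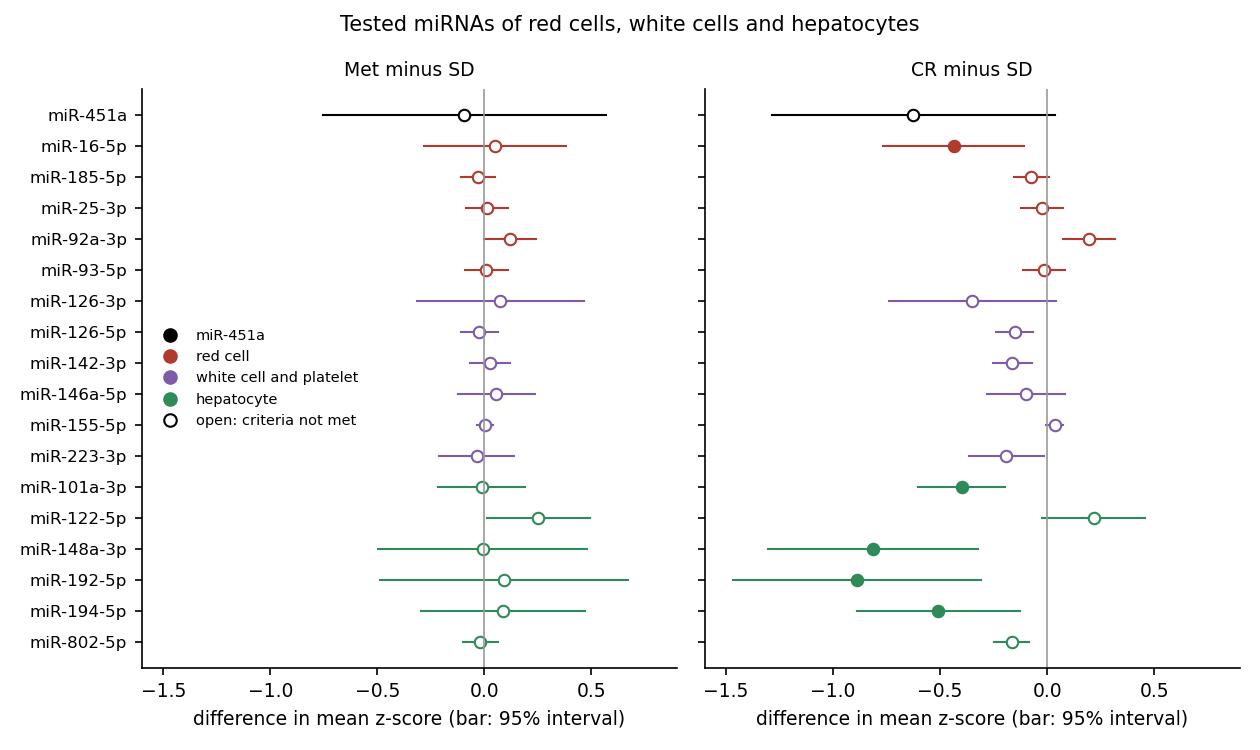
Difference in mean z-score from SD for Met (left) and CR (right) of miR-451a and of the tested miRNAs of the red cell, white cell and platelet, and hepatocyte lists, with 95% intervals from limma. Filled points met the criteria, which were 0 in Met and in CR miR-16-5p and 4 hepatocyte miRNAs. The interval of miR-451a spans 0 in both panels.

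The tested miRNAs whose z-scores followed miR-451a most closely over the 15 livers were let-7f-5p (r = 0.853), miR-26b-5p (r = 0.850) and miR-126-3p (r = 0.848). Over all tested miRNAs, r with miR-451a had a median of 0.173 and ran from -0.846 to 0.853. miR-144-3p ranked 51 of 695 entries by this measure. These values share arrays and scaling and are a description. let-7f-5p was 1.47 and 1.75 in CR mice 2 and 3 and at least 2.47 in every other liver. Without these mice, r with miR-451a was 0.320 for let-7f-5p, 0.293 for miR-26b-5p and 0.294 for miR-126-3p. These 3 were picked by their r with CR mice 2 and 3 included, so their fall was partly set by that choice. For miR-144-3p, which was not picked so, r without these mice was 0.725. The spread of r over all tested miRNAs without these mice is not given here, so the values are not compared.

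The agreement between the 2 probes of each member bears on how far single values can be read. For miR-451a, the probes correlated with r = 0.999 over the 15 arrays, and 1 probe was dimmer on every array, at 0.549 to 0.692 of the other. The median coefficient of variation among its spots was 3.04%, and 6 of its 300 spots were marked as outliers. For miR-144-3p the probes correlated with r = 0.944, the median coefficient of variation was 37.8%, and 21 of 300 spots were outliers. The standard error over spots of miR-144-3p was 0.441 to 0.954 on an array, against an SD between livers of 2.97 to 5.14 within the groups.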

How the data were processed

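Liver miRNA was measured on 1 array for each of 15 mice, 5 per diet, grouped by their labels. As deposited, each array's scanner file from Feature Extraction 11.5.1.1 gives spot intensity in linear units, with arrays not yet scaled to each other. Flags of 0 or 1 in these deposited files mark detection and outlier spots. A deposited table of 15744 lines, 1109 of them empty, gives a score per spot. Checked against the scanner files, that score was the z-score of the natural log of median signal, taken over the spots of each array, within 0.0005.

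The z-scores were recomputed, outlier spots left out, spots averaged per probe and probes per miRNA. Groups were compared with limma 3.58.1 in R 4.3.3, with variances that follow the mean. Permutation tests were two-sided, with 100000 resamples or exact for fewer than 10 mice. Python 3.11.15, scipy 1.17.1, pandas 2.3.3, numpy 2.4.6, matplotlib 3.10.9 and ViennaRNA 2.7.2 were used. On simulated data with known changes, the limma step was tested first. The number of arrays limits the precision. Named miRNAs were the members, miR-122-5p, the red cell, white cell and platelet, and hepatocyte lists, and the 3 tested miRNAs most like miR-451a. The members and lists were chosen with earlier results of these data known. The within-array difference between the members was not computed, since miR-144-3p was not detected on all arrays, and their correlation was added for the same reason after seeing the data. Alternatives were other scalings and background corrections, filters, tests, blocks for slide and replicate number, and leaving out mice.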

Additional observations from a re-analysis of the deposited data

How the results depend on the processing

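The difference of miR-451a between Met and SD stayed below 0 and short of the criteria under all 20 alternatives, with Z ratios from -2.06 to -0.247, and without each mouse in turn, from -3.64 to -0.0290. Against SD, CR was lower under all 19 alternatives, with Z ratios from -3.99 to -0.514. The criteria were met when arrays were scaled by the 75th percentile over all probes (Z ratio -3.77, adjusted p = 0.125, limma), giving 1 member in place of 0, beside 32 of 178 tested miRNAs. They were also met with the replicate number as a block (Z ratio -3.75, adjusted p = 0.105, limma), giving 1 member, beside 32 of 178. Mice with the same number deviated together in some cases and apart in others (r from -0.562 to 0.714), so the number is not taken as a pairing. Leaving out 1 mouse gave Z ratios from -4.79 to -2.74 against SD and from -4.50 to -2.30 against Met, and 0 to 1 members meeting the criteria in both. Without CR mice 2 and 3 the CR against Met Z ratio turned to 0.371, and the within-array difference of miR-451a from miR-122-5p turned to 0.12 with median signal and 0.0926 with total gene signal. Without 1 mouse in turn, that within-array difference ran from -0.66 to -0.29 for CR against SD, from -0.37 to -0.0026 for CR against Met and from -0.40 to -0.11 for Met against SD. The correlation of the members' z-scores was 0.525 within the second slide and -0.659 when arrays were scaled by the 75th percentile over detected probes, and the cause was not tested. For miR-144-3p, 12 alternatives over the 3 contrasts moved the untested difference by more than the spread between mice.

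That percentile scaling moved the median CR against SD difference of all tested miRNAs to 0.37, with miR-451a at -0.30, so the order of miR-451a below the median remained. It turned 5 higher and 26 lower miRNAs in CR against SD into 110 and 10, and the red cell list into 4 higher and 0 lower. Quantile normalization gave 25 and 17, z-scores over detected miRNAs 17 and 21, and the 75th percentile over all probes 0 and 32. The count of 31 became 17 with the slide block. Over these alternatives, the 37 miRNAs meeting the criteria in CR against Met became 12 to 116, and the 2 in Met against SD became 0 to 13. The lower call of miR-16-5p against SD was lost under that percentile scaling, quantile normalization, background subtraction and both total gene signal settings. Of the 4 hepatocyte calls against SD, 2 held under that percentile scaling, 3 with quantile normalization and 1, miR-101a-3p, with total gene signal. With total gene signal at the 75th percentile, 3 of the 6 white cell and platelet miRNAs were called lower in CR than in SD. They were miR-142-3p, miR-126-5p and miR-223-3p, beside 24 of 178 tested miRNAs. Under the percentile scaling over detected probes, 2 of the 6 were called higher and 0 lower, beside 120 of 178. miR-92a-3p was called higher in CR than in SD with quantile normalization, z-scores over detected miRNAs, the brightest probe, and an adjusted p limit of 0.05 without a Z ratio limit. With the pairwise z-test, miR-92a-3p and miR-122-5p were called higher in Met than in SD. Dim spots limit miR-144-3p, whose signal lay near background in most livers.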
